A study of Mus musculus with 23 samples.

Results

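A set of 10 genes of the Notch pathway was followed through the culture of mouse lung epithelium: the receptors Notch1, Notch2 and Notch3, the ligands Jag1, Jag2 and Dll1, the sugar transferase Lfng, and the target genes Hes1, Hey1 and Heyl. They were taken by symbol from the deposited count tables, and all 10 were found among 41073 genes. Cells carrying the epithelial surface protein EpCAM were isolated from lungs of C57BL/6 wild-type mice and grown on transwells, porous inserts, at an air-liquid interface, where the upper face of the cell layer meets air. The 23 bulk RNA libraries came from experiments A, B and C and formed 4 groups. Untreated cells were sampled on the day of isolation (fresh cells, 3 libraries, 1 per experiment), on the day of airlift (6), when the upper face is first exposed to air, and on day 4 of culture (control, 7), and cultures given NTHi (non-typeable Haemophilus influenzae, a bacterium that lives in human airways) were sampled on day 4 (7). The age and sex of the mice and the strain, dose and form of NTHi were not given in the sources used here. The labels do not say whether replicates were separate animals or cultures, so p-values measure the spread between these libraries, which may be technical.

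Notch signalling passes between touching cells. A Jagged or Delta-like ligand on one cell pulls on a Notch receptor of its neighbour, the receptor is cut by an ADAM protease and then by gamma-secretase, and the freed intracellular part joins the DNA-binding protein RBPJ to switch on genes of the Hes and Hey families, which encode transcriptional repressors. In the airway lining this signal is known for steering progenitors towards secretory cells and away from multiciliated cells. Notch3 and the Hey genes are also known from vessel walls.

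Levels are normalised counts (CPM), each relative to its library's total scaled by TMM, a method that sets the bulk of genes equal between libraries. Libraries held between 32323375 and 39081663 counts. The epithelial genes Epcam and Cdh1 were detected in each group, at mean levels of 237.1 to 531.7 and 1104 to 1609 CPM. The labels name airway epithelial cells, while genes of alveolar type 2 cells, the surfactant makers of the air sacs, summed to between 80000 and 104000 CPM in fresh cells. On day 4, control replicate 1 and NTHi replicate 3 of experiment C stood apart from their own replicates, and the NTHi results are also given without them. A gene is called changed where the edgeR quasi-likelihood test gave a Benjamini-Hochberg adjusted p below 0.05 over all genes tested.

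Heyl passed the filter on low counts only through the fresh libraries, where it was highest, so its counts are described and it enters no count of changed genes here. It is included only in some counts over alternative fits, as stated there. Of the other 9 genes, 7 fell between isolation and airlift, and Notch3 and Jag2 did not pass the test. Over all genes 74.6% were called in that comparison, 36.7% lower, and the median log2 change was -1.27 for the 9 members and 0.00 for all genes. From airlift to day 4 without bacteria, Notch3, Jag1, Dll1 and Hes1 rose, Jag2 and Lfng fell, and Notch1, Notch2 and Hey1 did not pass, against 54.5% of all genes called, 26.9% higher and 27.7% lower. Relative to fresh cells, the day 4 controls were lower in 8 of the 9 genes and higher in Notch3, where 76.6% of all genes were called, 38.8% higher and 37.7% lower. NTHi split the set further: Notch2 and Jag1 rose, Notch3, Jag2, Lfng and Hes1 fell, and Notch1, Dll1 and Hey1 did not pass. That is 6 of 9 genes, against 40.5% of all genes, 20.1% higher and 20.4% lower. In bulk RNA, fewer cells of a type and less RNA per cell cannot be told apart.

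**Figure D1:**
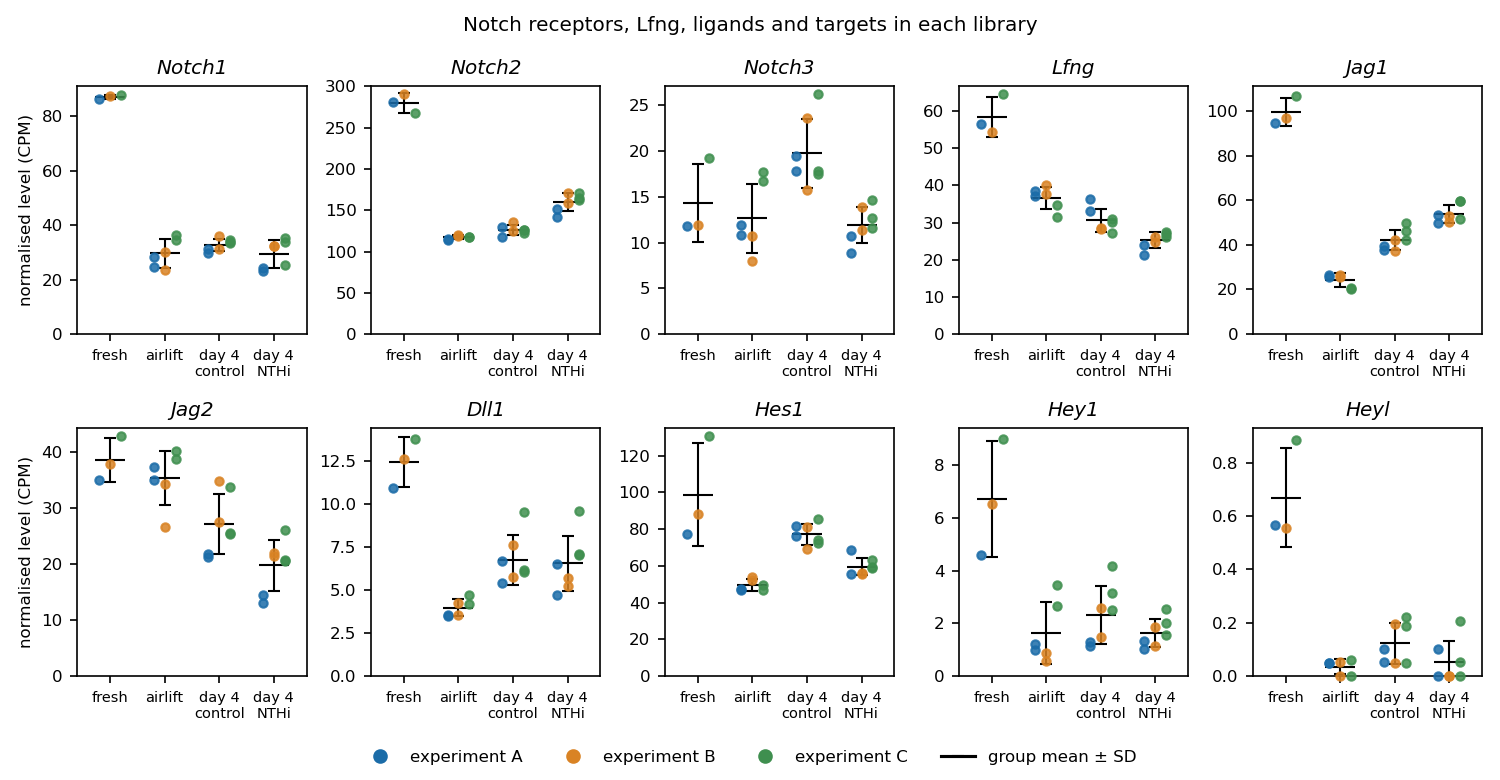
Normalised level (CPM) of each gene in every library, in 4 groups from left to right: fresh cells, airlift, day 4 control and day 4 NTHi. Points are libraries coloured by experiment, and lines are the group mean ± SD. Notch1, Notch2 and Jag1 are far higher in the 3 fresh libraries than in any cultured library. Notch2, Notch3, Jag1 and Hes1 do not overlap between NTHi and control, Jag1 and Hes1 only narrowly. The share of all genes without such overlap is not given here.

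Notch2, a receptor that secretory cells of the airway are known to need, was the most abundant receptor. It was at 281.3, 291.0 and 267.5 CPM in fresh cells of experiments A, B and C. At airlift the lowest, median and highest libraries were at 113.9, 117.8 and 119.7 CPM, in day 4 controls at 118.1, 125.6 and 136.3, and with NTHi at 141.4, 161.9 and 171.3. Every fresh library lay above every cultured one, and every NTHi library above every control. The fall to airlift was a log2 change of -1.27 ± 0.05 (SE), and the rise with NTHi was 0.34 ± 0.04 (edgeR adjusted p = 6.8e-06). Between airlift and control the difference was 0.09 ± 0.04, which did not pass (edgeR adjusted p = 0.066) but did so in 4 alternatives at 0.09 to 0.10: DESeq2, all libraries in 1 fit, and without control replicate 1 of A or of B. By experiment the NTHi difference was 0.24 ± 0.08 in A, which did not pass alone, 0.33 ± 0.08 in B and 0.41 ± 0.05 in C.

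Notch1, the receptor best known from early fate choices, lay at 86.3, 87.4 and 87.7 CPM in fresh cells, an almost flat level over the experiments. Its lowest, median and highest values were 23.6, 29.1 and 36.5 CPM at airlift, 29.7, 33.3 and 35.9 in controls, and 23.04, 32.5 and 35.4 with NTHi. The cultured groups overlapped throughout. The log2 change from isolation to airlift was -1.58 ± 0.09, and the NTHi difference was -0.16 ± 0.07, with a 95% interval of -0.31 to -0.02 before adjustment (edgeR adjusted p = 0.083). In experiment A alone that difference was -0.37 ± 0.09 and passed, against -0.05 ± 0.09 in B and -0.11 ± 0.13 in C. It also passed when control replicate 1 of experiment B or NTHi replicate 1 of experiment C was left out, with values of -0.20 and -0.21, and on library totals, at -0.23.

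Notch3, a receptor known from mural cells of vessels and from early airway progenitors, followed another course. Fresh cells gave 11.8, 11.9 and 19.3 CPM, the highest in experiment C. At airlift the libraries of experiments A and B were between 7.96 and 11.9 CPM and those of C at 16.7 and 17.7. Controls lay at 15.7, 17.9 and 26.2 CPM (lowest, median and highest), and NTHi cultures at 8.84, 11.6 and 14.7, with no overlap between them. Notch3 rose from airlift to control by 0.63 ± 0.14 and fell with NTHi by 0.73 on the log2 scale (SE 0.12, edgeR adjusted p = 0.00012). Isolation and airlift differed by -0.20 ± 0.17 (95% interval -0.54 to 0.14). The rise over fresh cells, 0.42 ± 0.17 (edgeR adjusted p = 0.032), lost its call in 9 alternatives: DESeq2 size factors, halved counts, no experiment term, without experiment A or B, and without the fresh library of A or B or control replicate 2 of A or B. Values there ran from 0.30 to 0.43.

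Lengths allow the receptors to be ranked against each other. Per kilobase of the longest transcript, Notch2 led in each group, with mean levels of 26.7 CPM per kilobase in fresh cells, 11.2 at airlift, 12.0 in controls and 15.2 with NTHi. Notch1 came next at 9.18, 3.12, 3.45 and 3.11, and Notch3 last at 1.79, 1.58, 2.46 and 1.49. Of the summed level per kilobase of Notch1, Notch2 and Notch3, Notch2 held 63.6% to 69.3% in controls and 75.4% to 79.3% with NTHi. Notch3 held 11.5% to 17.4% and 6.45% to 9.19%. Neither range overlapped between the treatments. These shares describe the same levels again and were not tested.

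**Figure D2:**
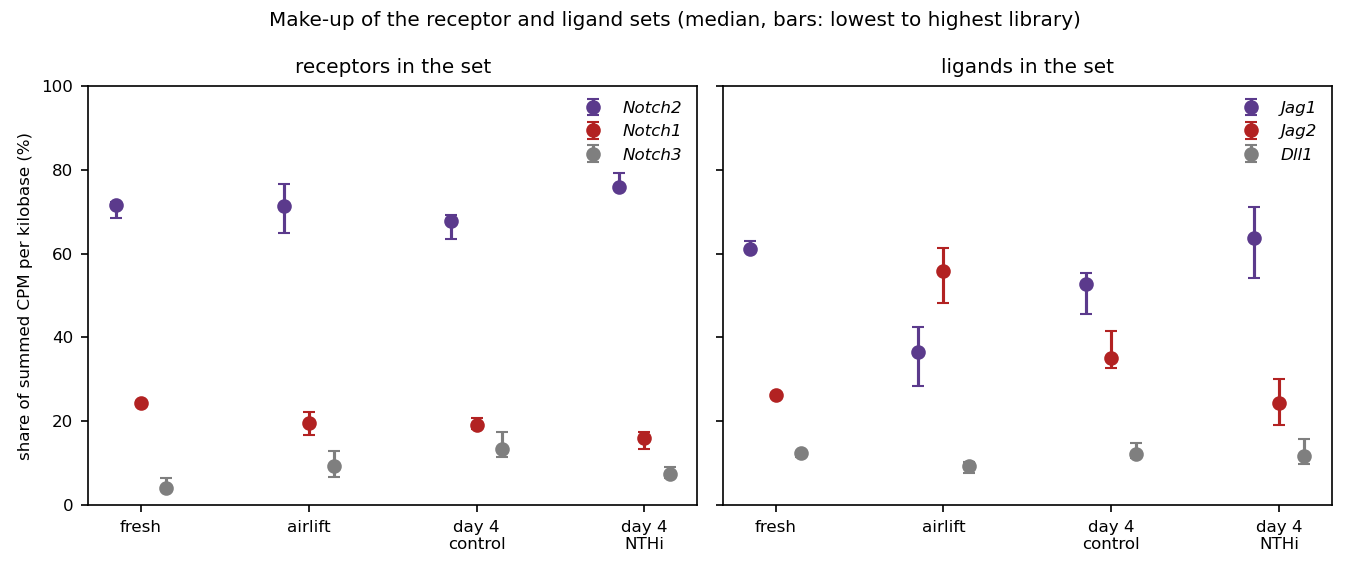
Share of the summed level per kilobase (%) held by each receptor (left) and each ligand (right) of the set, without Notch4 and Dll4, in the 4 groups. Points are medians and bars run from the lowest to the highest library. Notch2 leads the receptors in every group, and Jag2 leads the ligands at airlift, with a median of 55.8% against 36.5% for Jag1.

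Among the ligands Jag1 fell most on the way to airlift. Fresh cells held 94.8, 97.0 and 106.9 CPM, and airlift libraries 20.2, 25.8 and 26.7 (lowest, median and highest). By day 4 controls had come to 37.4, 42.0 and 49.9 CPM and NTHi cultures to 49.97, 52.8 and 59.6. The groups did not overlap, although the highest control, at 49.94 CPM, and the lowest NTHi library, at 49.97 CPM, were nearly equal. Jag1 changed by -2.05 ± 0.10 to airlift, 0.77 ± 0.09 from there to control, and 0.36 ± 0.05 with NTHi (edgeR adjusted p = 4.3e-05 for NTHi). Fitted by experiment, the NTHi rise was 0.43 ± 0.08 in A, 0.37 ± 0.09 in B and 0.30 ± 0.09 in C, of which the last did not pass.

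Jag2, the other Jagged ligand, moved the opposite way with NTHi. It was at 35.0, 37.9 and 42.9 CPM in fresh cells and at 26.6, 36.2 and 40.3 (lowest, median and highest) at airlift, ranges that overlapped. Controls were at 21.3, 25.6 and 34.9 CPM and NTHi cultures at 13.0, 20.8 and 26.2. The day 4 ranges overlapped, with experiment A the lowest in both groups, and within each experiment the mean was lower with NTHi. The log2 change was -0.13 ± 0.13 to airlift (not passed), -0.42 ± 0.11 from airlift to control and -0.48 ± 0.09 with NTHi (edgeR adjusted p = 0.00047). Without experiment A the difference between airlift and control was -0.27 and did not pass. NTHi values by experiment were -0.66 ± 0.10, -0.52 ± 0.12 and -0.33 ± 0.14 in A, B and C, the last of which did not pass.

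Dll1, a Delta-like ligand, was the least abundant of the 3 ligands. Fresh cells gave 10.9, 12.6 and 13.8 CPM, and airlift libraries 3.51, 3.87 and 4.73 (lowest, median and highest). Controls at 5.40, 6.18 and 9.54 CPM were all above airlift, and NTHi cultures at 4.71, 6.498 and 9.58 covered the same range as controls. The fall to airlift was -1.67 ± 0.14 and the later rise 0.73 ± 0.12. With NTHi the difference was -0.06 ± 0.13 (95% interval -0.32 to 0.21). The highest Dll1 level in each day 4 group came from a library that stood apart, control replicate 1 and NTHi replicate 3 of experiment C.

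Per kilobase, the order of the Jagged ligands changed along the culture. In fresh cells Jag1 held 60.9% to 63.0% of the summed level of Jag1, Jag2 and Dll1, and Jag2 held 25.6% to 26.8%. At airlift Jag2 led in each library, with 48.3% to 61.4% against 28.5% to 42.5% for Jag1. Control libraries held 45.5% to 55.3% Jag1 and 32.6% to 41.6% Jag2, and NTHi libraries 54.1% to 71.1% and 19.0% to 30.1%. Dll1 held between 7.54% and 15.7% over the 23 libraries. The further ligand Dll4 is outside these sums. Its mean was 2.32 CPM in controls and 5.81 with NTHi, against 6.74 and 6.55 for Dll1. These shares describe the same levels again and were not tested.

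Lfng encodes Lunatic fringe, an enzyme that adds a sugar to Notch receptors and so alters how they answer Delta-like and Jagged ligands. Its level went down from fresh cells to airlift and from airlift to day 4 controls, and on day 4 it was lower with NTHi than without. Fresh cells held 56.5, 54.3 and 64.6 CPM, airlift libraries 31.6, 37.4 and 40.2 (lowest, median and highest), controls 27.3, 30.1 and 36.2, and NTHi cultures 21.3, 26.2 and 27.6. Fresh cells stood clear of the rest, while airlift overlapped control and control overlapped NTHi. The changes were -0.69 ± 0.08 to airlift, -0.27 ± 0.07 from airlift to control and -0.28 ± 0.07 with NTHi (edgeR adjusted p = 0.0057 for NTHi). The change from airlift to control did not pass without experiment B, at -0.17. The NTHi difference was largest in experiment A, at -0.61 ± 0.10, against -0.16 ± 0.09 in B and -0.13 ± 0.07 in C, neither of which passed alone. Without experiment A it was -0.14 and still passed.

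Because the freed receptor acts through RBPJ, the 250 bases before the transcription start were searched on both strands for the 6 letters TGGGAA, the core of the sequence that RBPJ binds. RefSeq entries on build GRCm38.p6 were matched for 7 members (Notch1, Notch2, Notch3, Jag1, Jag2, Dll1 and Lfng), and Hes1, Hey1 and Heyl were not matched. Only Lfng held the letters, in 2 places that begin 135 and 108 bases before the start, the first on the opposite strand. Of all 32851 promoters, 21.6% held them. The windows of the 3 matched members that fell with NTHi are shown 5′ to 3′ with the matches in capitals, Lfng from chr5:140607091-140607340 (plus strand), Jag2 from chr12:112929496-112929745 (minus strand) and Notch3 from chr17:32166891-32167140 (minus strand), so that the promoter with the letters can be set beside those without.
Lfng: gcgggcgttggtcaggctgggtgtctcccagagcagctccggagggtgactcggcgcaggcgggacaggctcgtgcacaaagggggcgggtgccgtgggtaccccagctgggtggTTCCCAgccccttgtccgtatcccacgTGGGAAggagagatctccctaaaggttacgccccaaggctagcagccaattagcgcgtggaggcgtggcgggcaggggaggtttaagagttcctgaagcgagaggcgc
Jag2: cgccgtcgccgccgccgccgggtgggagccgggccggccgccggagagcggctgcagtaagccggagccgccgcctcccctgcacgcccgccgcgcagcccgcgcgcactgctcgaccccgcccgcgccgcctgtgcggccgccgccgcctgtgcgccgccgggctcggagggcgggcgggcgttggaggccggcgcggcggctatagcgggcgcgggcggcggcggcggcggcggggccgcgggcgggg
Notch3: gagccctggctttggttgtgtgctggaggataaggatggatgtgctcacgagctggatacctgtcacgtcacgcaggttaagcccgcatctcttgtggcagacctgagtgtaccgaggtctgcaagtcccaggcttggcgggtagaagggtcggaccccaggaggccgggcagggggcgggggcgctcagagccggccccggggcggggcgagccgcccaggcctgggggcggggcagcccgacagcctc

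Hes1 is the repressor most often read as a target of Notch. It held 95.5% to 99.3% of the summed level per kilobase of Hes1, Hey1 and Heyl, a sum without the target Nrarp. Fresh cells of experiments A, B and C were at 77.6, 88.2 and 130.9 CPM, so C was well above the others. Airlift libraries were at 46.6, 48.4 and 54.1 CPM (lowest, median and highest), controls at 69.0, 76.4 and 85.5, and NTHi cultures at 55.7, 58.8 and 68.9. Cultured groups did not overlap, with NTHi between airlift and control. The lowest control, at 69.02 CPM, and the highest NTHi library, at 68.91 CPM, were nearly equal. Hes1 changed by -0.999 ± 0.11 to airlift and 0.61 ± 0.09 from airlift to control, and fell with NTHi by 0.37 on the log2 scale (SE 0.06, edgeR adjusted p = 6.7e-05). By experiment the NTHi change was -0.34 ± 0.11, -0.43 ± 0.09 and -0.36 ± 0.07 in A, B and C, each of which passed. The day 4 control was below fresh cells by -0.39 ± 0.11, but without the fresh library of experiment C the difference was -0.12 and did not pass.

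Hey1, a repressor of the related Hey family, was low. It was at 4.61, 6.54 and 8.99 CPM in fresh cells. Airlift libraries of A and B held 0.580 to 1.199 CPM and those of C 2.66 and 3.46. Controls were at 1.15, 2.51 and 4.16 CPM (lowest, median and highest) and NTHi cultures at 1.03, 1.57 and 2.56, which overlapped. The fall to airlift, -2.20 ± 0.26, passed, while the later difference of 0.46 ± 0.23 did not, except without experiment C (0.78), without airlift or control replicate 1 of that experiment (0.63 and 0.54), or with no filter on low counts (0.48). With NTHi the difference was -0.46 ± 0.19 (edgeR adjusted p = 0.066), and without the pair of libraries that stood apart it was -0.55 and passed. It also passed without control replicate 1 of B or C or NTHi replicate 2 of A or B, at between -0.54 and -0.51, and on library totals (-0.51), with halved counts (-0.49), with no filter on low counts (-0.46) and with the replicate block (-0.45).

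Heyl, the third target, was close to the limit of detection. Its counts were 16, 16 and 26 in the fresh libraries and summed to 8 over the 6 airlift, 35 over the 7 control and 14 over the 7 NTHi libraries. No count was found in 2 airlift and 4 NTHi libraries. No cultured library held more than 9, and with the filter's minimum of 10 the gene entered the fit of the untreated groups through its fresh libraries alone. It was not tested in the day 4 fit, so no fold change is given. Per kilobase, Hes1 was at 67.4, 33.7, 52.6 and 40.6 CPM in fresh, airlift, control and NTHi cells, Hey1 at 2.77, 0.673, 0.962 and 0.677, and Heyl at most at 0.148.

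**Figure D3:**
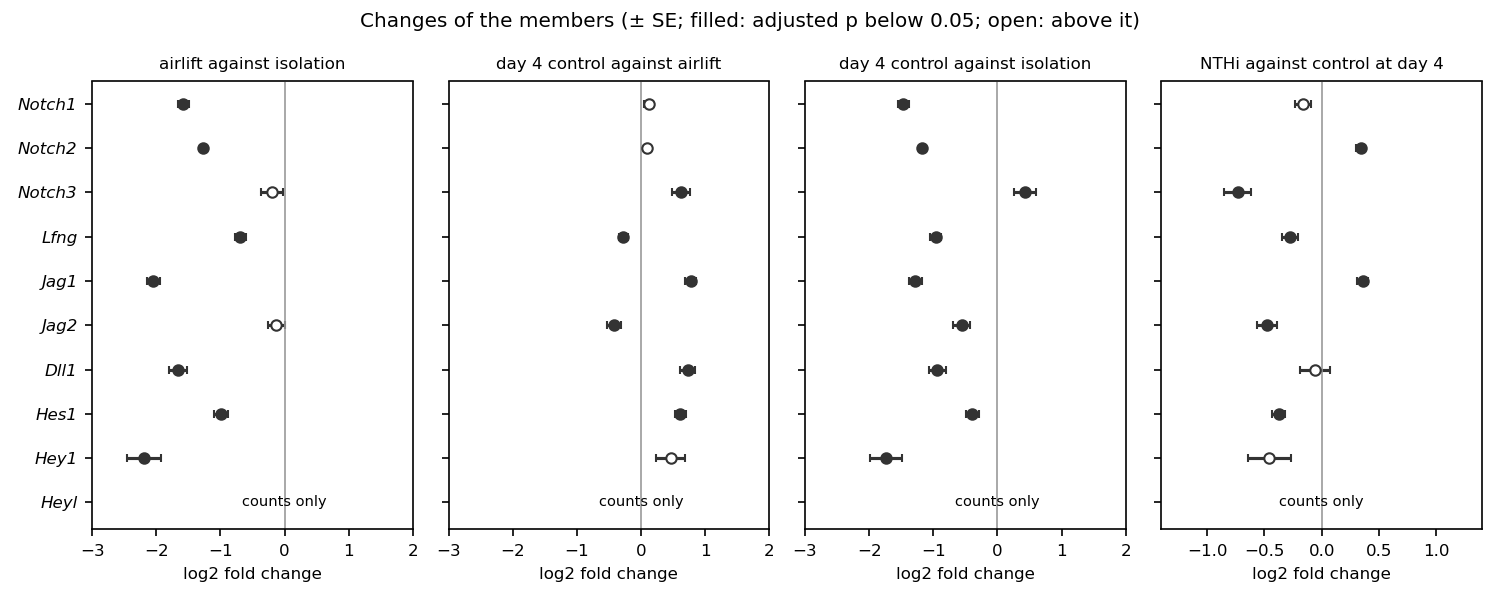
Log2 fold change ± SE of each gene in the 4 comparisons, with filled points for an adjusted p below 0.05 and open points above it. The NTHi panel has a narrower axis than the others. Jag1 and Notch2 lie to the right of 0 with NTHi and Notch3, Jag2, Hes1 and Lfng to the left, while 7 genes fell between isolation and airlift. Heyl is left out, as its counts in culture were below the filter.

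The comparisons that touch fresh cells depended on the scaling. Scaled by library totals alone, the median of all genes moved from 0.00 to 0.49 for airlift against isolation, and 10131 genes were called higher and 4223 lower, in place of 6928 and 6718. The 7 members that fell did so under both scalings. Jag2 came to 0.35, which passed, and Notch3 to 0.28, which did not, but both were below the shifted median, by 0.13 and 0.21 on the log2 scale, as they were before (0.13 and 0.20). For control against fresh cells the median moved to 0.49, with 10149 higher and 4497 lower in place of 7108 and 6904. Hes1 there came to 0.09 and Jag2 to -0.08, and neither passed. Relative to the median, Hes1 was at -0.40 with TMM and -0.41 on library totals, and Jag2 at -0.57 in both. For NTHi, library totals gave 2282 genes higher and 4416 lower, in place of 3281 and 3338, the 6 called members kept their direction and call, and Notch1 and Hey1 gained one.

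Whether the NTHi effect differed between experiments was tested by an interaction term. For the 9 members tested the edgeR adjusted p was 0.9997, and 0 of 16337 genes were called, with 675 at an unadjusted p below 0.05. Lfng was the 1 member among those, with an unadjusted p of 0.0022. Without the 2 libraries that stood apart, 7 members were called with NTHi, the 6 above and Hey1. Notch2 was then at 0.34, Jag1 at 0.41, Notch3 at -0.70, Jag2 at -0.49, Lfng at -0.29 and Hes1 at -0.36.

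Of 45 further genes of the pathway, 41 were tested with NTHi, and 15 rose, 6 fell and 20 did not pass, against 20.1% higher and 20.4% lower over all genes. Their median log2 change was 0.06. The largest rise was that of Neurl3, which encodes a ubiquitin ligase of the Neuralized family. It had a mean level of 23.5 CPM in controls (SD 3.65, n = 7) and 112.1 CPM with NTHi (SD 10.9, n = 7) and rose by 2.26 ± 0.09 on the log2 scale. Whether Neurl3 acts on Notch ligands in these cells was not tested. Dll4, a Delta-like ligand known from endothelium, rose by 1.33 ± 0.14, from a mean of 2.32 to one of 5.81 CPM, and its highest control library, at 3.36 CPM, was below its lowest NTHi library, at 4.67. Among the cleavage genes Adam17, a protease that can cut the receptor, rose by 0.44 ± 0.05, while the gamma-secretase genes Aph1c and Psen2 changed by -0.89 ± 0.14 and -0.51 ± 0.11. In the nuclear complex Rbpj rose by 0.28 ± 0.07 and the coactivator Maml2 by 0.43 ± 0.07. Without experiment B the Rbpj difference was 0.21 and did not pass.

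Of the receptor turnover genes, the ubiquitin ligases Dtx2 and Dtx4 rose by 0.43 ± 0.06 and 0.41 ± 0.08. Dlk2, a Delta-like relative that lacks part of the usual binding region, changed by -1.25 ± 0.15. The target Nrarp, a feedback inhibitor of Notch, had a mean of 6.70 CPM in controls and 4.26 CPM with NTHi and changed by -0.65 ± 0.09, in the same direction as Hes1. Notch4, the endothelial receptor, did not pass in any of the 4 comparisons as fitted on all their libraries, at 0.09 ± 0.13 with NTHi. The 4 further sugar transfer genes, Mfng, Rfng, Pofut1 and Poglut1, did not pass with NTHi, at between -0.43 and 0.06. Rfng, at -0.14 ± 0.05 (edgeR adjusted p = 0.0501), passed without control replicate 3 of C, NTHi replicate 1 of A or NTHi replicate 2 of C, and under 4 other alternatives.

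**Figure D4:**
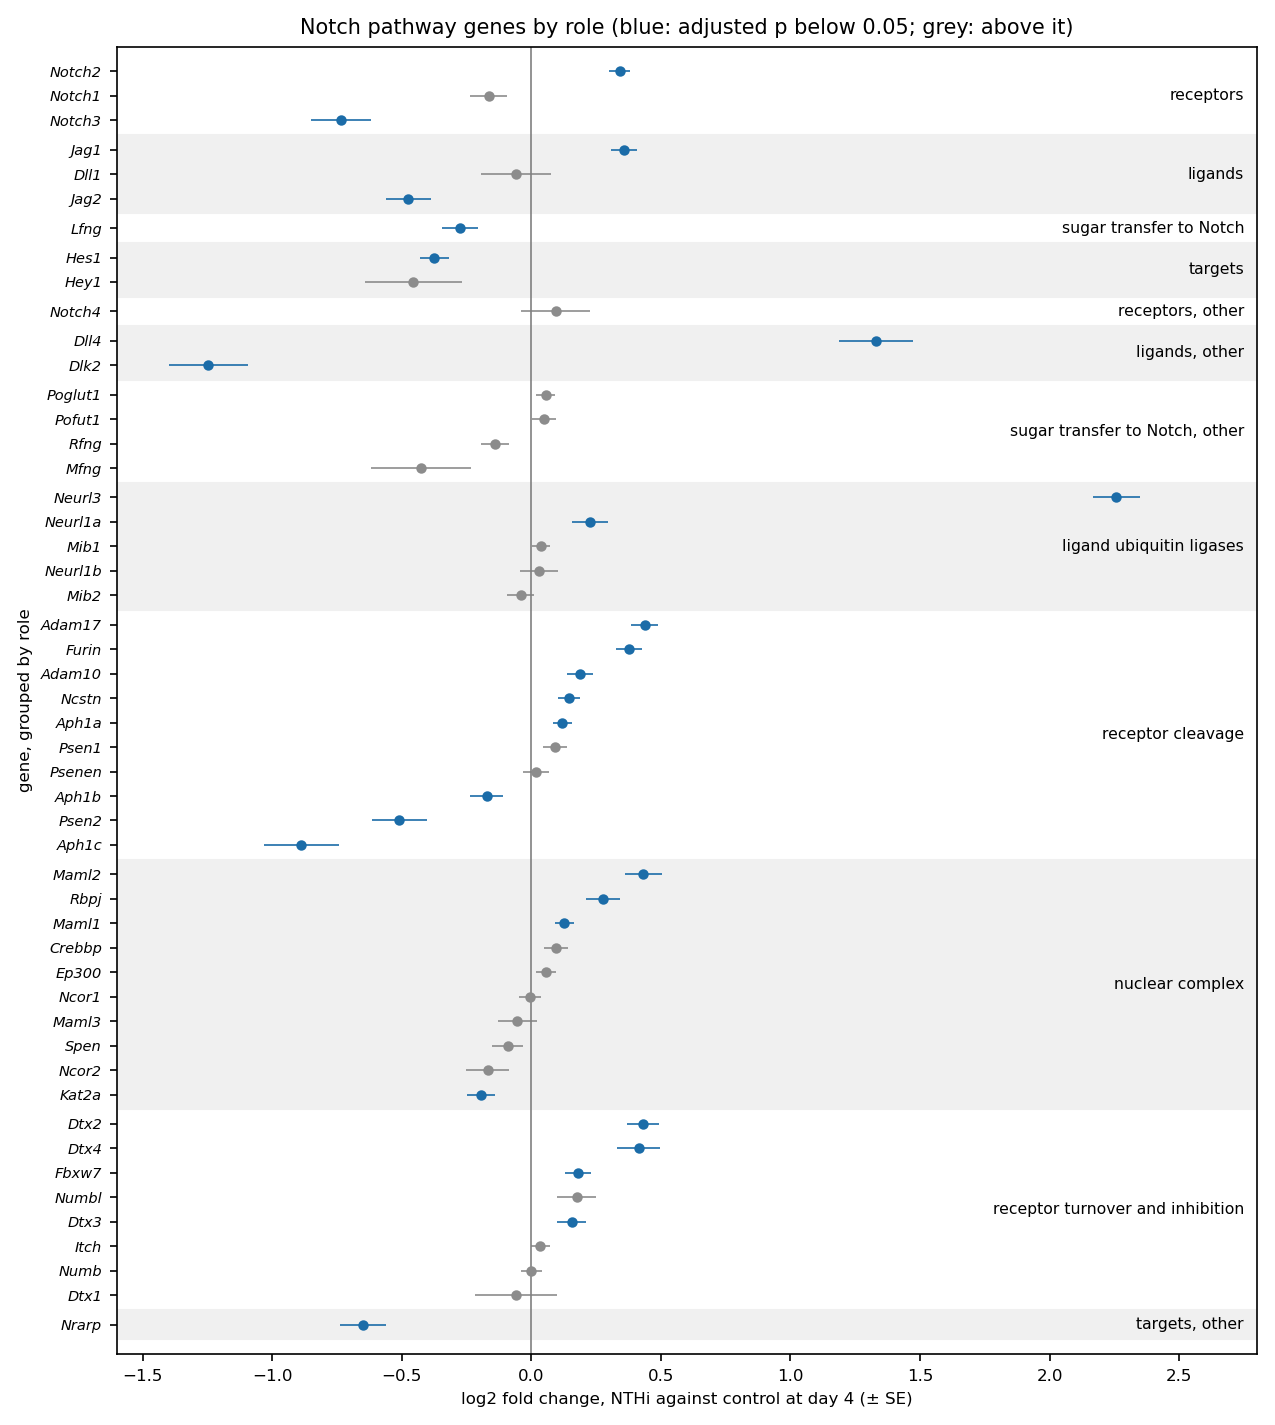
Log2 fold change ± SE with NTHi at day 4 for each member and further pathway gene that was tested, grouped by role, with blue for an adjusted p below 0.05 and grey above it. Neurl3 and Dll4 lie furthest to the right, at 2.26 and 1.33, and Dlk2 and Aph1c furthest to the left, at -1.25 and -0.89.

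Before the bacteria, the further genes moved both ways. From isolation to airlift 13 of 43 rose, 18 fell and 12 did not pass, against 37.9% higher and 36.7% lower over all genes. Adam10, the main protease of the first cut, rose by 1.91 ± 0.06, Dlk2 by 1.53 ± 0.36, and the sugar transferases Pofut1 and Poglut1, which act on the receptor in the cell, by 1.04 ± 0.06 and 0.80 ± 0.07. Without experiment A the Dlk2 rise was 0.88. Dtx1 changed by -2.97 ± 0.20, the coactivator Maml3 by -1.94 ± 0.09, the fringe gene Rfng by -1.57 ± 0.09, Nrarp by -1.51 ± 0.11, Dll4 by -1.41 ± 0.23 and Rbpj by -0.60 ± 0.07. On library totals Rbpj was at -0.12 and did not pass.

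From airlift to control 13 of 43 rose, 9 fell and 21 did not pass, against 26.9% higher and 27.7% lower over all genes. The gamma-secretase genes Aph1c, Psen2 and Ncstn rose by 0.97 ± 0.11, 0.59 ± 0.08 and 0.56 ± 0.05, and Dtx4 by 0.67 ± 0.07. Neurl3 fell by 0.70 on the log2 scale, and Numbl, Neurl1b, Dtx2 and Rbpj changed by -0.50 ± 0.08, -0.46 ± 0.09, -0.32 ± 0.06 and -0.28 ± 0.05. Dll4 rose by 0.50 ± 0.19 (edgeR adjusted p = 0.033), a call lost without experiment A (0.33) or B (0.60), and without any 1 of the airlift libraries other than replicate 2 of B, of the control libraries of A, or control replicate 1 of C (0.37 to 0.51). Nrarp differed by 0.20 ± 0.10 and did not pass. Relative to fresh cells, 12 of 43 were higher in controls and 18 lower (38.8% and 37.7% over all genes), with Adam10 at 2.14 ± 0.06, Nrarp at -1.31 ± 0.11 and Rbpj at -0.88 ± 0.06.

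Markers of other cell types moved with several of these results. With NTHi, 6 of 7 markers of basal cells, the stem cells of the airway, fell and 0 rose. Over all genes 20.4% were called lower and 20.1% higher. The summed basal level ranged from 134 to 504 CPM in controls and 69.0 to 228 with NTHi. Of 9 endothelial markers tested of 12 listed, 5 fell and 1 rose, with sums of 68.4 to 91.4 and 36.5 to 54.9 CPM. For mesenchymal and mural cells 5 of 11 fell and 2 rose, with sums of 217 to 515 and 197 to 539 CPM. No marker of these 3 lists was at 0 in either group. Alveolar type 1 markers fell in 7 of 8 and rose in 1, with sums of 3340 to 4020 and 1500 to 1630 CPM. Macrophage markers fell in 6 of 9 and rose in 1, with sums of 708 to 1490 and 203 to 791 CPM. Of 9 club and secretory genes 6 fell and 2 rose, with a median log2 change of -0.70 and sums of 4030 to 6010 CPM in controls and 2450 to 3050 with NTHi. The multiciliated programme had sums of 149 to 417 and 158 to 362 CPM, with a median log2 change of -0.04 over its 9 genes. Alveolar type 2 genes rose in 4 of 8 and fell in 3, while their sum was lower with NTHi. It was 3900 to 4560 CPM in controls and 2930 to 3240 with NTHi. Of 4 neutrophil markers tested 2 rose and 1 fell. Of 6 neuroendocrine genes 2 fell, and of 7 lymphocyte genes tested 4 fell. The part of these cells in the changes of Notch3, Jag2, Lfng and Hes1 was not tested.

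The same lists moved in the untreated cultures. From airlift to control 7 of 7 basal, 10 of 11 mesenchymal and mural, and 7 of 9 multiciliated genes rose, the last with 1 fall. Over all genes 26.9% were called higher. The mesenchymal and mural sum went from 30.5 to 81.3 CPM at airlift to 217 to 515 in controls. Club and secretory genes rose in 6 of 9 and fell in 2, while their sum went from 19300 to 27000 CPM down to 4030 to 6010. Alveolar type 2 genes rose in 7 of 8 and type 1 genes in 6 of 8, and 0 of either list fell. Endothelial sums went down, from 96.0 to 119 CPM to 68.4 to 91.4. At airlift the libraries of experiment C, in which Notch3 and Hey1 were higher than in A and B, also had the higher mesenchymal and mural sums, 72.6 to 81.3 CPM against 30.5 to 36.6. Basal sums there were 99.8 to 110 CPM against 25.3 to 75.0, and multiciliated sums 138 to 143 against 72.3 to 92.5. Experiment C was also above A and B at airlift in the endothelial, alveolar type 1, neuroendocrine and epithelial sums. Its macrophage, lymphocyte, neutrophil, alveolar type 2, and club and secretory sums did not stand clear above theirs. Between isolation and airlift 8 of 11 endothelial and 9 of 9 multiciliated genes fell and none of either list rose, with no listed gene of these types at 0. Of 8 alveolar type 2 genes 8 fell, with a median log2 change of -5.48 and sums of 80000 to 104000 CPM in fresh cells and 1420 to 1520 at airlift. Of 9 club and secretory genes 9 fell, with a median of -3.69 and sums of 165000 to 187000 and 19300 to 27000 CPM. Of 10 lymphocyte genes 7 fell. Over all genes 36.7% were called lower between isolation and airlift. The part of these cells in the changes of the Notch genes was not tested.

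Genes with the most similar course were found by the root mean square difference of log2 CPM over the 23 libraries, each gene centred on its own mean, among 12352 genes. For Notch2 they were Fgd6 and Trak1, at 0.10 and 0.11, for Lfng Cldn3, a tight junction gene, and Ttc7, at 0.12 and 0.13, and for Hes1 the transcription factor Irx3 and Hdac11, both at 0.15. Such courses were common, with 358 genes within 0.25 of Notch2, 414 of Lfng and 153 of Hes1, against 80 for Notch1, 18 for Dll1, 7 each for Jag1 and Jag2 and 6 for Notch3. Notch1 was nearest to Tmem220 and Kif13a, both at 0.17. For Jag1 they were Tmem50b (0.18) and the interleukin 1 receptor Il1r1 (0.20), for Dll1 Ccdc157 (0.18) and Heg1 (0.19), for Notch3 Cdh13 (0.19) and Rec8 (0.21), and for Jag2 Engase and Prkcz (both 0.24). Hey1 and Heyl had no close neighbour: the nearest were Zfp474 and Odad4, both at 0.38, and P3h2 and Tekt2, both near 0.62. The spread within low counts adds to these distances.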

How the data were processed

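The authors deposited 3 tables of raw read counts per gene, 1 per experiment, with 23 library columns that were matched to samples by name. Per the submitters' processing notes the tools were STAR and DESeq2 and the build GRCm39; versions, read counter and strand setting were not given in the sources used here. Overlapping and antisense genes can therefore share counts. Of 41098 lines per table, 25 broken ones (up to 0.082% of a library's counts) were left out. Among counts below 20, 69.3% to 74.9% were even, so a count may hold both reads of a pair.

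The fits used edgeR 4.0.16 in R 4.3.3: filterByExpr (minimum count 10), TMM scaling, and a quasi-likelihood F-test with group and experiment as terms. The NTHi comparison used the 14 libraries of day 4 (16337 genes), and the untreated stages 16 libraries (18302 genes). The SE is the log2 fold change divided by the square root of F, and 95% intervals are 1.96 SE each way. Replicate pairs within an experiment differed beyond sampling noise, and none was merged. CPM used TMM factors of all 23 libraries, and CPM per kilobase the longest protein-coding transcript in GENCODE vM21. Figures and sums were made in Python 3.11.15. The test was also run on simulated counts with the same spread for every gene and no experiment effect. Those settings differ from these data, so that run does not measure its accuracy here, and its result is not given.

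The members, the pathway and marker lists and the tests were chosen with earlier results of these data known. The text names the 10 members, then Rbpj, Notch4, Dll4 and Nrarp, and up to 4 pathway genes per direction and comparison with the largest change among those called with an average of 1 or more in log2 CPM, and the 2 genes most like each member. Day 4 control against isolation is given for fewer of them. Alternatives were DESeq2 1.42.0 and its size factors, library totals, no filter, no experiment term, halved counts, all libraries in 1 fit, a replicate block, each experiment alone or left out, each library left out, and, added after the data were seen, the NTHi fit without 2 libraries that stood apart.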

Additional observations from a re-analysis of the deposited data

Results flagged for a closer look

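Over the members and named pathway genes, 93 groups of 4 to 10 libraries were examined for a highest or lowest library far from the others, and 2 were flagged, where chance flags about 1 in 20. Rbpj in the NTHi cultures had a low library, replicate 3 of experiment C, at 69.5 CPM, while the other 6 lay between 84.3 and 94.7 CPM. This is one of the libraries that stood apart, and without both of them Rbpj rose with NTHi by 0.32 on the log2 scale, against 0.28 with them. Ncstn at airlift had a low library, replicate 2 of experiment B, at 131.7 CPM, with the others between 147.5 and 155.8 CPM. No member of the set was flagged.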

How the results depend on the processing

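Over the 10 members, Heyl included, 1047 fold changes were recomputed, of which 991 kept their direction and their side of the threshold. Refits of Heyl against isolation are among those kept. They carry no weight, as its high fresh libraries alone had brought it past the filter. Of the rest, 27 lost a call, 22 gained one and 2 turned in sign with a call in 1 or both fits. In 5 more the sign turned with a call in neither (Dll1 with NTHi, 4 times, and Notch3 for airlift against isolation). Among the lost calls, 5 without single libraries and 3 under other alternatives were those of Heyl for day 4 control against airlift. Scaling by library totals turned the sign for airlift against isolation of Jag2 (0.35), Notch3 (0.28), Notch4 (0.20), Adam17 (0.12), Dtx4 (0.39), Neurl3 (0.40) and Psen2 (0.12), for day 4 control against isolation of Hes1 (0.085), Notch4 (0.39), Neurl1b (0.15) and Numbl (0.31), and with NTHi of Neurl1b, Pofut1 and Poglut1, which were uncalled in both. That scaling moves all genes together. Fitted alone, experiments A, B and C called 3389, 3067 and 2617 genes with NTHi, and C called 3 members, each from fewer libraries. Leaving out single libraries gave 6069 to 6702 genes and 6 to 8 members with NTHi. For airlift against isolation it gave 8 members in each case, Heyl among them each time. With halved counts Heyl was not tested and 7 were called.

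Whether the replicate numbers pair the samples could not be told. Deviations of same-numbered libraries from their experiment's mean correlated between NTHi and control at 0.19 in experiment A, 0.33 in B and -0.74, 0.34 and -0.54 in C, and between airlift and control at -0.19 to 0.03. Experiments A and B, with 2 libraries per group, yield only 1 value each per comparison. The negative values in C are those of replicates 1 and 3, which hold the libraries that stood apart. With the replicate block, 5982 genes and 7 members were called with NTHi, Hey1 added at -0.45, and 8768 genes and 6 members, Heyl not tested, for control against airlift.

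Counts limit Heyl and Hey1 most, with at most 9 and 170 counts in any cultured library. With 1 fresh library per experiment, comparisons with isolation take their spread partly from the other stages.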
